A study of Homo sapiens with 4 samples.

Results

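The DNA replication machinery was followed as 45 genes chosen by name, each encoding a protein that marks origins, unwinds, copies or repackages DNA or supplies its building blocks. They make up 45 of the 12264 genes counted as expressed, out of 19775 genes named by the platform annotation, and all 45 passed the filter on dim signal. The platform carries 83 probe sets (groups of short probes that read the same transcript) for them, of which 75 passed; 24 of the genes were read by 1 expressed probe set and 21 by several. The brightest probe set stands for its gene, and genes with a probe set of the opposite sign are pointed out.

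T84, an established line from a human colorectal carcinoma, grows as a polarised epithelial sheet, and here it was kept on permeable filters and transfected with short RNAs. Each of 4 groups is 1 Affymetrix U133 Plus 2.0 array: day 5 cells that had received miR-338-3p with miR-451 (the 2-miRNA array), day 5 cells that had received miR-210 and miR-33a as well (the 4-miRNA array), and day 5 and day 7 cells that had received a short RNA with minimal homology to human miRNAs (the control arrays). All groups received 15 pmol of oligonucleotide, and the sources used here do not say whether that is the total of a mix. The groups are 1 cell line from a tumour, so nothing here describes normal colon, and no untransfected cells were analysed. With 1 array per group there is no spread between cultures and no test across samples, so no p-value is given, and precision is limited by there being 4 arrays.

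Replication is prepared before S phase, when the origin recognition complex (ORC), CDC6 and CDT1 load the ring-shaped MCM2-7 helicase onto DNA as an inactive complex. The kinase CDC7 with DBF4, and the factors MCM10, CDC45 and GINS, then turn the helicase on, and polymerases held by the PCNA clamp copy both strands. Most of these genes are switched on together in dividing cells by E2F transcription factors, and in the colon they are a feature of the dividing cells of the crypt, which cease to replicate as they move to the surface.

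The transfected miRNAs are shown with their seed, bases 2 to 8, in capitals, because the seed is the stretch that pairs with target messenger RNAs. Sequences are the mature strands of RefSeq (GRCh38.p14), written 5′ to 3′. The labels give no arm for miR-33a and miR-210, and the strands that long carried those names are printed. For miR-451 none is printed. The 3 seeds shown differ from each other, and sites for them in the transcripts of the replication genes were not analysed here.
hsa-miR-338-3p: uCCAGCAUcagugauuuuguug
hsa-miR-33a-5p: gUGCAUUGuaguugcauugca
hsa-miR-210-3p: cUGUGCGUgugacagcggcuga

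Some promoters of the replication genes hold a sequence feature that the choice of genes did not use. RefSeq promoters (GRCh38.p14, 250 bases before to 50 after a transcript start) were matched for 39 of the 45 genes and searched on both strands for the core bound by E2F factors, spelled TTTGGCGC, TTTCCCGC, TTTCGCGC or TTTGCCGC. At least 1 exact match was found for 18 of the 39 genes (46.2%), against 6.48% of 9958 expressed genes and 3.99% of 27305 genes with a promoter in the table. The median promoter GC content was 65.3% for the replication genes and 64.3% for expressed genes. GINS4, MCM4, MCM5, POLD3, RPA2 and RPA3 were not matched to a promoter. A match is a description of the letters and no measure of binding.

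Windows of 60 bases around a match are printed to show what such a core looks like upstream of a polymerase subunit, a helicase subunit, the clamp and the ligase. The letters of that 1 match are in capitals, on the strand of the gene. The MCM6 window lies on chromosome 2 at chr2:135876500-135876559, with the match beginning 90 bases before the start, and the promoter of this gene held 4 matches that overlap in pairs, with 1 of each pair on each strand. In the printed window the overlapping match on the other strand runs on into the lower-case letters gaaa. The POLA2 window is chr11:65261883-65261942, the PCNA window chr20:5126648-5126707 and the LIG1 window chr19:48170425-48170484, with the match beginning 53, 59 and 114 bases before the start. In none of these windows does the gene table place a transcribed gene.
MCM6: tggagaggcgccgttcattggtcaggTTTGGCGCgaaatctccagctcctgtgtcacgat
POLA2: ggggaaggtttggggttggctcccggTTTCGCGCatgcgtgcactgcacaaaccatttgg
PCNA: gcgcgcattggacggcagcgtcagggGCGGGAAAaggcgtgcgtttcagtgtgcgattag
LIG1: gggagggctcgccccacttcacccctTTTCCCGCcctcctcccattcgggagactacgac

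Signals are given on a scale where the trimmed mean of every array is 500, and differences as log2 of scaled signal plus 32, so that folds of dim genes are understated. As deposited, the trimmed means were 147 and 150 on the 2-miRNA and 4-miRNA arrays and 76.6 and 74.3 on the day 5 and day 7 controls, so brightness and miRNA treatment coincide and cannot be told apart by group. On the brightest probe set, every replication gene was at least 1.46 times the median of each array. The labelled cell type was borne out by its markers: all 10 colonic epithelial markers were expressed, while 2 of 6 fibroblast, 2 of 6 leukocyte and 1 of 6 endothelial markers were, with summed scaled signals of 382 to 635, 221 to 365 and 265 to 435 on the 4 arrays, against 180824 to 243689 for the epithelial list. In these bulk samples, fewer cells of a dividing kind and less of a transcript per cell cannot be told apart.

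Across the machinery, the day 5 control was the array with the highest signal. It was highest for 30 of the 45 genes (66.7%, with 36.7% of all expressed genes). The 4-miRNA array was lowest for 21 (46.7%, with 27.2% of all genes). The 2-miRNA array was lowest for 12 (26.7%, with 30.3%), a share near that of all genes. Both miRNA arrays lay below both controls for 26 genes (57.8%, with 41.0% of all genes) and above both for 6 (13.3%, with 22.8%): MCM4, CDT1, DBF4, ORC6, PRIM2 and RRM1. When arrays were scaled on their medians, 19 genes (42.2%, with 24.6% of all genes) lay below both controls and 11 (24.4%, with 33.6%) above both. In that scaling the day 5 control was highest for 25 genes (55.6%, with 28.3% of all genes).

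**Figure D1:**
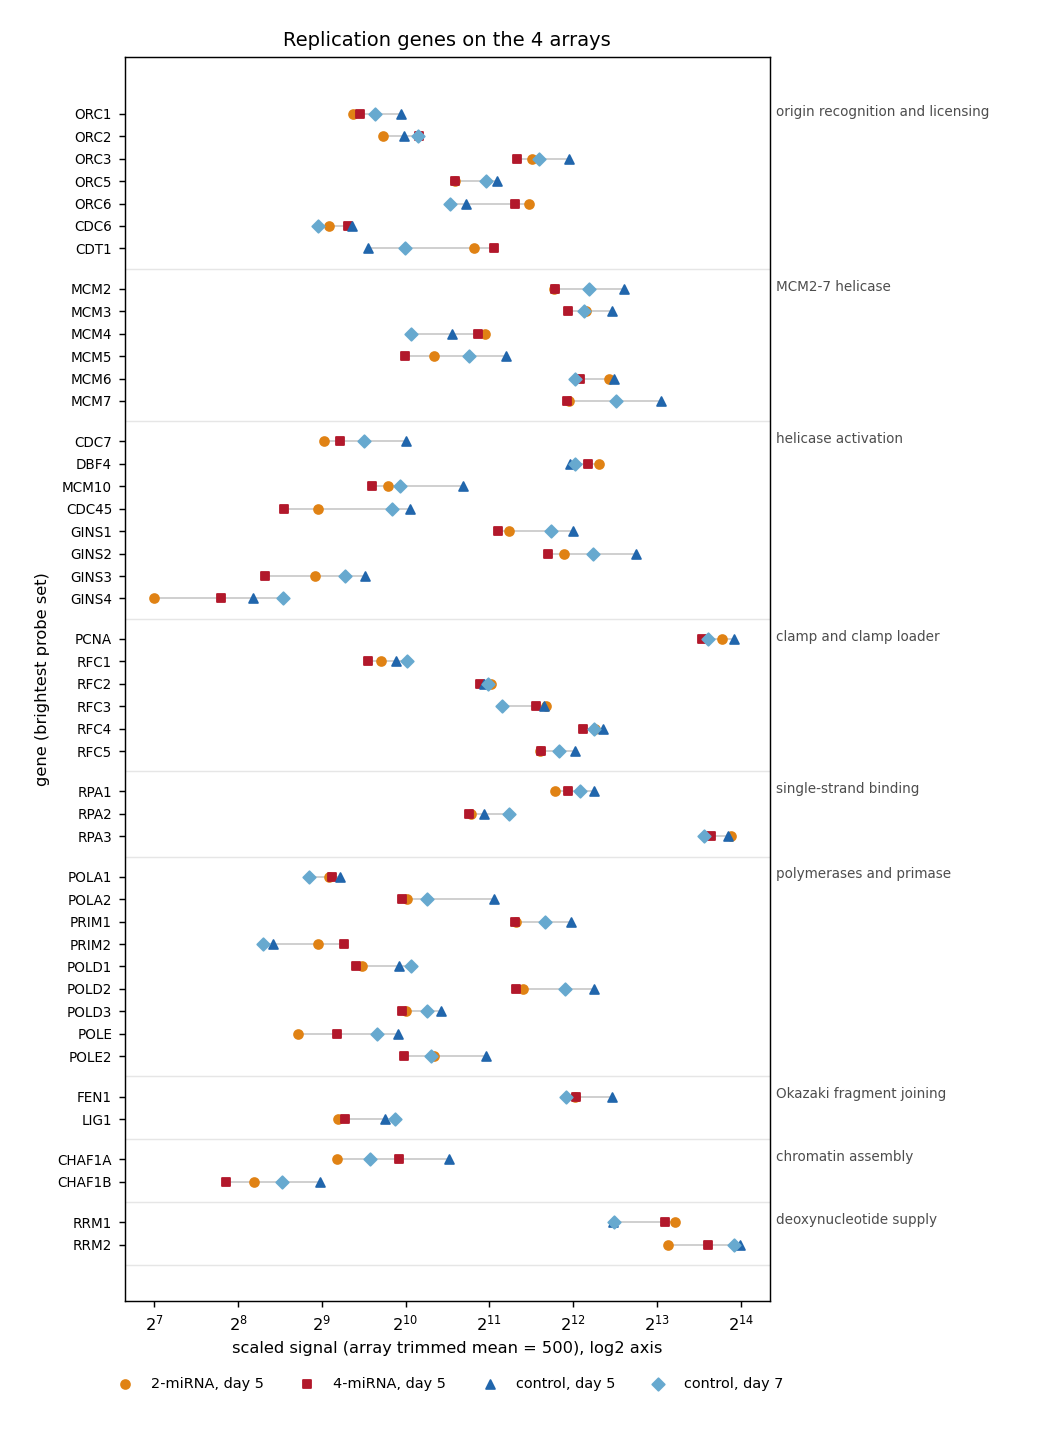
Scaled signal (log2 axis, array trimmed mean of 500) of the brightest probe set of each of the 45 replication genes on the 4 arrays, grouped by role, with 1 point per array and a grey line over the range. The day 5 control (dark blue triangles) is the rightmost point for 30 genes, and for 26 genes both miRNA arrays lie to the left of both controls.

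The control arrays address how the machinery differed after 2 further days on the filter. On day 7, 35 of 45 genes were below day 5 (77.8%, with 50.7% of all genes), and their median log2 difference was −0.28 where that of all genes was −0.01. None was at least 2-fold apart, with 2.41% of all genes at least 2-fold lower and 3.35% at least 2-fold higher. The differences ran from −0.91 for CHAF1A to 0.43 for CDT1. The spread between probe sets of the same gene, from 2625 genes with a bright pair, had an SD of 0.27 in this comparison. It applies to the reading of single genes and does not measure the precision of a median over 45 genes.

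Against the same day 5 control, both miRNA arrays had lower signal for most of the machinery. With 2 miRNAs 36 of 45 genes were below 0 (80.0%, with 59.4% of all genes), 6 were at least 2-fold lower (13.3%, with 6.37% of all genes) and 1 at least 2-fold higher (8.11% of all genes were). With 4 miRNAs 38 were below 0 (84.4%, with 59.0% of all genes), 8 at least 2-fold lower (17.8%, with 6.70%) and 1 at least 2-fold higher (8.03% of all genes were). The median differences were −0.44 and −0.45, while all genes had medians of −0.16 and −0.15. The 3 comparisons share the day 5 control array, so a high reading of the machinery on that 1 array would appear in each of them.

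The distance of the replication genes from all genes was steadier than the counts of 2-fold differences. The median of the replication genes minus that of all genes was −0.28 with 2 miRNAs and −0.30 with 4, and stayed between −0.27 and −0.36 under the other scalings, although scaling on array medians raised the median of all genes to 0.01 and 0.12. The number at least 2-fold lower was 2 and 4 instead of 6 and 8 after centring each array on a running median along the signal axis, and 1 and 1 after scaling on medians, when 1 and 2 were at least 2-fold higher. Among expressed genes above the 75th percentile of mean signal, which held 22 of the 45, the replication genes had medians of −0.36 and −0.39, and all genes there −0.13 and −0.10.

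**Figure D2:**
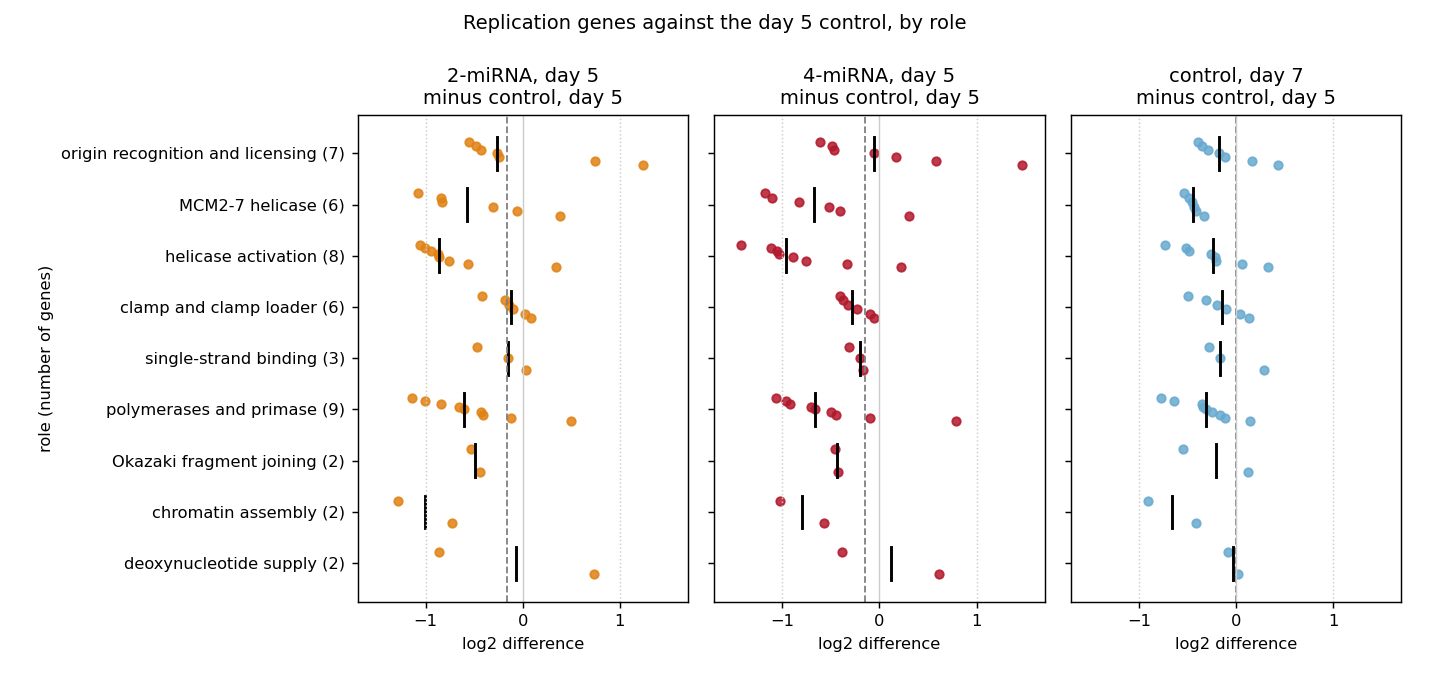
Log2 difference from the day 5 control of each replication gene, by role, for the 2-miRNA, 4-miRNA and day 7 control arrays. Points are genes, black bars the median of a role, the dashed line the median of all expressed genes and dotted lines mark 2-fold. Helicase activation genes have medians of −0.86, −0.96 and −0.24.

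**Figure D3:**
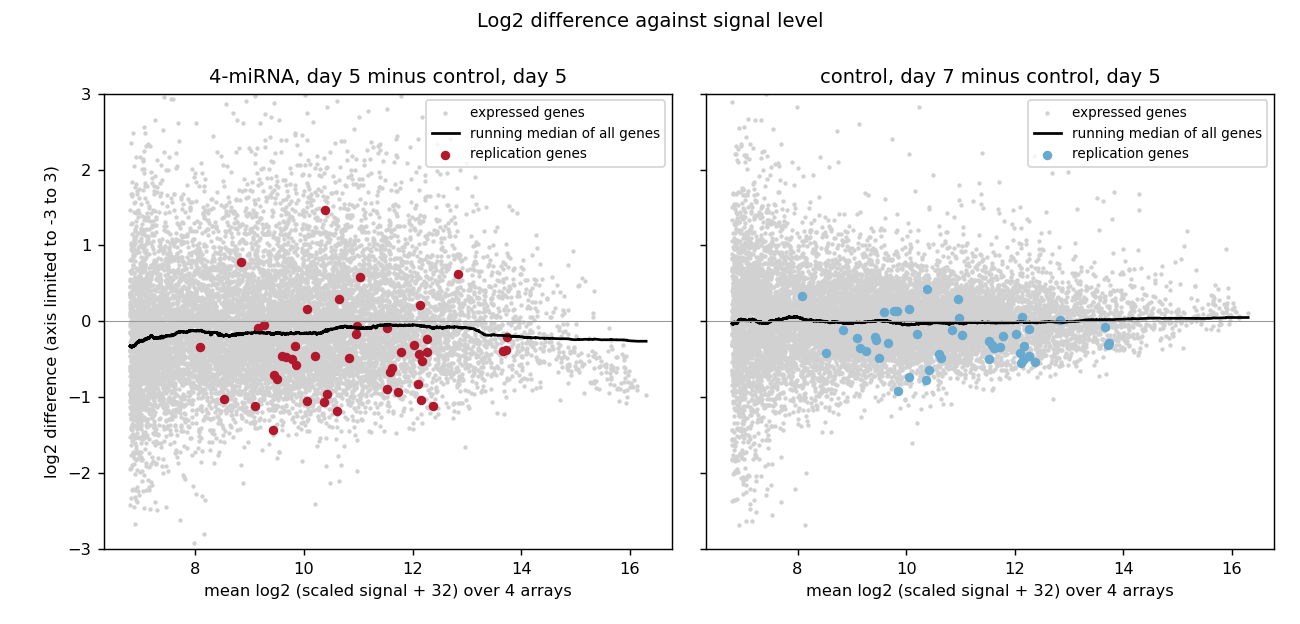
Log2 difference against mean log2 (scaled signal + 32) over the 4 arrays, for the 4-miRNA array (left) and the day 7 control (right) minus the day 5 control. Grey points are expressed genes, the black line their running median and coloured points the replication genes, of which 38 and 35 are below 0; differences beyond the limits of the axis are not drawn.

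Set against the day 7 control, the machinery on the miRNA arrays was nearer to all genes. With 2 miRNAs 28 of 45 genes were below the day 7 control (62.2%, with 61.1% of all genes), and with 4 miRNAs 31 were (68.9%, with 60.9%). Median differences were −0.26 and −0.27, with −0.16 and −0.15 for all genes. GINS4 was the 1 gene at least 2-fold lower with 2 miRNAs (4.03% of all genes were) and CDC45 with 4 (4.15% were), and CDT1 was at least 2-fold higher with 4 miRNAs (5.63% were), while none was with 2 (6.19% were). A share near that of all genes is not a result about the replication genes.

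The miRNA arrays differed little from each other in these genes. The 4-miRNA array was below the 2-miRNA array for 28 of 45 genes (62.2%, with 49.2% of all genes; 20 of 45 after scaling on medians), the median difference was −0.075 with 0.0043 for all genes, and none of the 45 was at least 2-fold apart (1.33% of all genes were lower and 1.04% higher). Differences ran from −0.55 for GINS3 to 0.71 for CHAF1A, and probe sets of a gene had an SD of 0.18. The direction of the median turned to 0.017 when arrays were scaled on their medians.

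The MCM2-7 helicase, the ring that unwinds the duplex, had all 6 subunits below the day 5 control on day 7 (50.7% of all genes were), at −0.53 to −0.33 on their brightest probe sets. MCM7 gave scaled signals of 3970 and 3898 on the 2-miRNA and 4-miRNA arrays, and 8442 and 5820 on the day 5 and day 7 controls. MCM5 gave 1297 and 1020 on the miRNA arrays, 2347 on day 5 and 1732 on day 7, and MCM2 gave 3498 and 3516, 6258 and 4690. In all 3 genes both miRNA arrays were below both controls, as in 41.0% of all genes. Log2 differences from the day 5 control were −1.08 and −1.11 for MCM7, −0.84 and −1.18 for MCM5 and −0.83 and −0.83 for MCM2. The second expressed probe set of MCM7 (−0.76 and −0.84) and that of MCM5 (−0.90 and −1.13) had the same sign.

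The remaining subunits of the ring were less apart or were read in more than 1 way. MCM3 gave 4553 and 3917 with miRNAs, 5631 on day 5 and 4471 on day 7, and MCM6 gave 5500 and 4336, 5747 and 4169, so the groups overlapped in both. For MCM4 the brightest probe set was higher with miRNAs (1974 and 1862, with 1506 on day 5 and 1069 on day 7). The other 3 expressed probe sets of MCM4 differed by −0.996 to −0.70 with 2 miRNAs and by −1.08 to −0.41 with 4, and on day 7 they were at −0.27, −0.083 and 0.18, so the direction for MCM4 rests on which probe set is read.

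Factors that convert the loaded ring into an active helicase stood lowest among the larger groups, with medians of −0.86 and −0.96. On both miRNA arrays 7 of 8 genes were below the day 5 control (87.5%, with 59.4% and 59.0% of all genes). CDC45, which joins the ring with GINS to form the working helicase, gave 495 and 375 on the miRNA arrays, 1061 on day 5 and 916 on day 7 (log2 differences of −1.05 and −1.42 from day 5, and −0.21 for day 7). It was at least 2-fold lower than the day 5 control with 4 miRNAs under all 8 alternatives, and with 2 miRNAs under 5 of 8. CDC45 has no other probe set, so the alternatives that changed the filter or probe set left its value unchanged. GINS2 gave 3790 and 3340, 6888 and 4817, and GINS1 2405 and 2192, 4095 and 3406; a dim second set of GINS2 was on the other side of day 7 with 2 miRNAs (0.13). Both GINS genes were lower on the miRNA arrays than on either control, by −0.86 and −1.04 for GINS2 and by −0.76 and −0.89 for GINS1 against day 5.

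GINS3 and GINS4 complete the GINS complex. GINS3 gave 485 and 320 on the miRNA arrays, 731 on day 5 and 622 on day 7, a difference of −1.11 with 4 miRNAs, but its other probe set was higher (0.60 and 0.41). GINS4 gave 127.8 and 223 on the miRNA arrays, with 290 on day 5 and 373 on day 7. For GINS4 a second probe set had the same sign (−1.01 and −0.57) and another, with scaled signals of 66.4 to 142, did not (0.03 and 0.58).

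CDC7, the kinase that phosphorylates the ring, gave 520 and 595 on the miRNA arrays, 1028 on day 5 and 725 on day 7. Its activating subunit DBF4 was higher with miRNAs, with 5056 and 4640 on the miRNA arrays and 3985 and 4160 on the controls, a difference of 0.34 and 0.22 from day 5. Both genes had 1 expressed probe set. MCM10, a scaffold needed for helicase activation, gave 885 and 777 with miRNAs, 1643 on day 5 and 979 on day 7 on its brightest probe set. These are differences of −0.87 and −1.05 from day 5, while its 2 other expressed probe sets, with signals of 138 to 461, were higher by 0.61 to 1.23, and the median over its probe sets with 4 miRNAs was 0.61.

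Of 7 licensing factors, 5 were below the day 5 control with 2 miRNAs (71.4%, with 59.4% of all genes) and 4 with 4 (57.1%, with 59.0%). Their medians were −0.26 and −0.05. The share with 4 miRNAs was near that of all genes, so it is not a result about these factors. ORC1, the largest subunit of ORC and the 1 most tied to the cell cycle, gave 661 and 703 on the miRNA arrays, 982 on day 5 and 797 on day 7. ORC6 gave 2834 and 2526 on the miRNA arrays, above 1681 on day 5 and 1483 on day 7, and CDC6, the loading ATPase, gave 544 and 635, 659 and 496. ORC1 was thus below both controls with miRNAs, ORC6 above both (0.74 and 0.58 from day 5) and CDC6 between them. ORC3 differed by −0.43 and −0.61 from day 5 and was below both controls. ORC5, another subunit of ORC, gave 1546 and 1547 on the miRNA arrays, 2175 on day 5 and 1999.7 on day 7. Its second probe set gave 1182 and 973, 988 and 813. Both controls were thus above both miRNA arrays on the first (−0.48 and −0.48 from day 5), and the groups overlapped on the second (0.25 and −0.022). ORC2 gave 850.3 and 1142, 1013 and 1134, and 519 and 387, 308 and 491 on its second probe set. The groups overlapped on both, with differences from day 5 of −0.24 and 0.17 on the first and 0.70 and 0.30 on the second.

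CDT1, the loading factor that is destroyed once S phase begins, was the only one of the 45 genes at least 2-fold higher than the day 5 control, and its probe sets disagreed. The brighter one gave 1809 and 2121 on the miRNA arrays, 748 on day 5 and 1021 on day 7, a difference of 1.24 and 1.46. The other gave 320 and 381, 771 and 538, a difference of −1.19 and −0.96. The brighter set carries the suffix by which Affymetrix marks probes that may also pair with other transcripts, as do the sets that stand for ORC6, RFC1 and CHAF1A, and the part of such pairing in the differences was not tested. The median over the probe sets of CDT1 was 0.024 and 0.25.

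**Figure D4:**
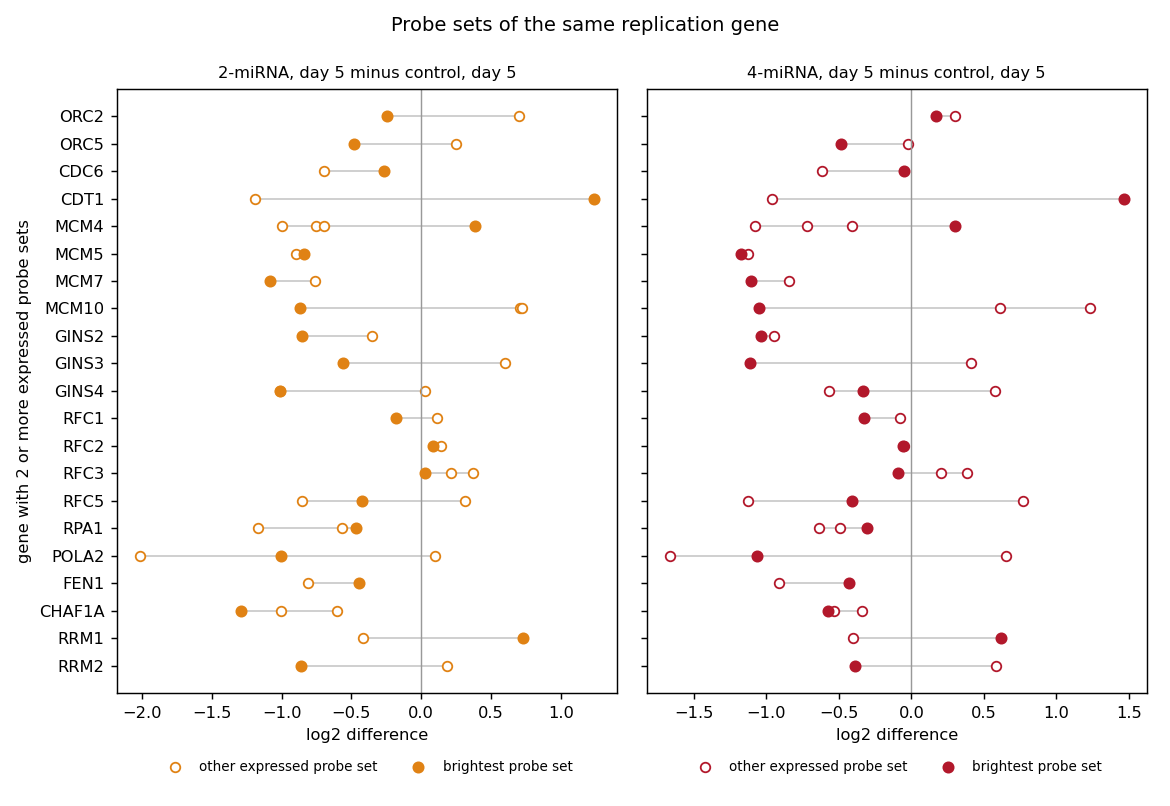
Log2 difference from the day 5 control of every expressed probe set of the 21 replication genes with 2 or more, for the 2-miRNA (left) and 4-miRNA (right) arrays; filled points are the brightest probe set of a gene and open points the others. All probe sets of a gene lie on the same side of 0 for 9 genes on the left and 11 on the right, and those of CDT1, MCM10 and POLA2 lie on both sides.

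Probe sets of the same replication gene had the same sign for 9 of 21 genes with 2 miRNAs, for 11 with 4 and for 11 between the controls. With 2 miRNAs 53 of the 75 expressed probe sets were below 0 with a median of −0.44, and with 4 miRNAs 58 were with a median of −0.43. Over 2625 genes with a bright pair, the SD between probe sets was 0.58 in both comparisons, and it was 0.48 and 0.52 over the 13 such replication genes.

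DNA polymerases and primase were lower as a group, with medians of −0.61, −0.66 and −0.31 on the 2-miRNA, 4-miRNA and day 7 control arrays. On each of these 8 of 9 genes were below the day 5 control (88.9%, with 59.4%, 59.0% and 50.7% of all genes). POLE, the catalytic subunit of polymerase epsilon, which extends the leading strand, gave 420 and 580 on the miRNA arrays, 962 on day 5 and 807 on day 7. POLA2, a subunit of the polymerase that starts each strand, gave 1040 and 997, 2121 and 1224. POLE was lower by −1.14 and −0.70 than on day 5 and POLA2 by −1.01 and −1.06, and in both the miRNA arrays were below both controls. A second probe set of POLA2 gave 48.3 and 70.2 with miRNAs, 293 on day 5 and 186 on day 7, and another had the opposite sign (0.10 and 0.65).

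Polymerase delta, which makes the lagging strand, had each of its 3 listed subunits lower with miRNAs. POLD2 gave 2703 and 2547 on the miRNA arrays, 4861 on day 5 and 3825 on day 7, POLD1, the catalytic subunit, gave 716 and 678, 973 and 1074, and POLD3 differed by −0.41 and −0.45. All 3 were below both controls with miRNAs, as were 41.0% of all genes (24.6% after scaling on medians). POLE2 was at −0.61 and −0.96, and POLA1, the catalytic subunit of the starting polymerase, gave 545 and 556, 595 and 461, with no separation of the groups. Of the primase subunits, which lay down the RNA primer, PRIM1 was lower by −0.65 and −0.66 and PRIM2 higher by 0.49 and 0.79, each on 1 probe set.

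The sliding clamp, its loader and the single-strand binding protein differed little. PCNA, the clamp, gave 13993 and 11873 on the miRNA arrays, 15456 on day 5 and 12458 on day 7, so the groups overlapped. Of the 5 loader genes, RFC1, the large subunit, gave 832 and 748 with miRNAs, 947 on day 5 and 1039 on day 7, and its other probe set was at 0.11 and −0.080 from day 5. RFC2 gave 2082 and 1888, 1966 and 2023, and its other probe set 1546 and 1347, 1397 and 1082. Both sets of RFC2 lay within −0.057 to 0.14 of day 5 with miRNAs, and their signs on day 7 differed (0.041 and −0.36). RFC3 gave 3278 and 3019, 3223 and 2275 on its brightest probe set, which was at 0.024 and −0.093, while its 2 other expressed sets were higher than day 5 by 0.37 and 0.21 with 2 miRNAs and by 0.39 and 0.21 with 4. On day 7 the sets of RFC3 ran from −0.50 to 0.38. RFC4 was at −0.098 and −0.24. RFC5 gave 3106 and 3131, 4168 and 3638, differences of −0.42 and −0.41. It had 3 expressed probe sets that spread from −0.85 to 0.32 with 2 miRNAs and from −1.12 to 0.77 with 4. RPA1, the large subunit that coats single-stranded DNA, gave 3526 and 3934, 4881 and 4342, below both controls with miRNAs. Its 2 other expressed probe sets were also below both controls. From day 5 they were at −0.57 and −0.49 on 1 set and at −1.17 and −0.64 on a dim one. RPA2 and RPA3 were between −0.20 and 0.04 from day 5 with miRNAs. On its brightest probe set, no gene of these groups was at least 2-fold apart in any of the 6 comparisons. Of all genes, 6.37% and 6.70% were at least 2-fold lower than day 5 with 2 and 4 miRNAs. At least 2-fold higher were 8.11% and 8.03%, so finding none among so few genes is not a result about them. The probe set of RFC5 that was higher than day 5 was also above day 7, at least 2-fold on both miRNA arrays.

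Joining of Okazaki fragments is the work of FEN1, the flap nuclease, and LIG1, the ligase. FEN1 gave 4149 and 4186 on the miRNA arrays, 5654 on day 5 and 3871 on day 7. LIG1 gave 586 and 622, 863 and 941. The differences from day 5 were −0.44 and −0.43 for FEN1 and −0.53 and −0.45 for LIG1, and both controls were high for LIG1. For FEN1 the day 7 control was the lowest array on this probe set, but on its other probe set, with 2637 and 2445, 4639 and 3782, both controls were high. The sign of FEN1 against day 7 thus rests on the probe set (0.099 and 0.11 on the first, −0.51 and −0.62 on the other).

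CHAF1A and CHAF1B, the subunits of the assembly factor that places histones on new DNA, were lower than on day 5 on all other arrays. CHAF1A gave 582 and 974 on the miRNA arrays, 1465 on day 5 and 764 on day 7, differences of −1.29, −0.57 and −0.91. Its other 2 expressed probe sets were lower by −1.01 and −0.60 with 2 miRNAs and by −0.34 and −0.53 with 4, but were higher on day 7 (0.05 and 0.30). CHAF1B gave 292 and 232, 504 and 370, with both miRNA arrays below both controls. CHAF1A was at least 2-fold lower with 2 miRNAs under all 8 alternatives, and CHAF1B with 4 miRNAs (−1.02) under 4 of 8. Changing the filter left both values unchanged. So did changing the probe set for CHAF1B, which has no other.

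Ribonucleotide reductase, which makes deoxynucleotides, had subunits that pointed in opposite directions and probe sets that disagreed in both. RRM1 gave 9490 and 8778 on the miRNA arrays, 5710 on day 5 and 5766 on day 7 on the brightest probe set, and its other probe set was at −0.42 and −0.40. RRM2, the subunit whose amount limits the enzyme, gave 8975 and 12501, 16335 and 15444, and its other probe set was at 0.18 and 0.59. The day 7 control differed from day 5 by 0.01 and −0.08 in these genes.

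Genes with an E2F core in the matched promoter can be set beside those without. On day 7 the 18 with a match had a median of −0.37 and the 21 without −0.17. With 2 miRNAs the medians were −0.55 and −0.44, and with 4 miRNAs −0.66 and −0.41. All of these are differences from the same day 5 control array. Against the day 7 control the order was reversed with 2 miRNAs, at −0.16 with a match and −0.30 without. With 4 miRNAs it was kept, at −0.28 and −0.17. The ranges overlapped in each comparison. For the 2-miRNA array against day 5 they ran from −1.14 to 1.24 with a match and from −1.29 to 0.74 without. These values are a description without a test.

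A wider list of 50 replication genes outside the 45, of which 48 were expressed, was also mostly below the day 5 control, but without an excess of 2-fold lower over 2-fold higher genes on the miRNA arrays. It had 33 genes below the day 5 control with 2 miRNAs (68.8%, with 59.4% of all genes), 34 with 4 (70.8%, with 59.0%) and 36 of 48 on day 7 (with 50.7% of all genes). Medians were −0.35, −0.31 and −0.20, where all genes had −0.16, −0.15 and −0.0066. At least 2-fold lower were 4, 3 and 2 of its genes (8.33%, 6.25% and 4.17%, with 6.37%, 6.70% and 2.41% of all genes). At least 2-fold higher were 4, 4 and 0 (8.33%, 8.33% and 0%, with 8.11%, 8.03% and 3.35% of all genes), so with miRNAs these shares were near those of all genes. CTPS1, which makes cytidine triphosphate, was furthest below the day 5 control on both miRNA arrays, with 665 and 581 on the miRNA arrays, 2169 on day 5 and 1046 on day 7. RRM2B, the reductase subunit of p53 responses, was higher at 765 and 638 with 283 and 438. CDC25A, the phosphatase that activates CDK2, gave 440 and 306, 811 and 527 on its brightest probe set, a difference of −1.32 with 4 miRNAs, while another was at 0.48. CLSPN, a checkpoint adaptor at the fork, was dim: it was under the array median on day 7 and at least 1.79-fold higher on day 5. Histone handling and methylation genes behind the fork (ASF1A, ASF1B, RBBP4, NASP, DNMT1, UHRF1 and HELLS) were below day 5 in 6, 7 and 7 of 7, with medians of −0.50, −0.51 and −0.26.

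Markers of dividing cells that are outside the 45 were also measured, and their part in the differences of the replication genes was not tested. TOP2A and CCNA2 are in this list and in the wider list above. Of 12 such genes, 9 were below the day 5 control with 2 miRNAs (all genes 59.4%), 8 with 4 (66.7%, near the 59.0% of all genes) and 11 on day 7 (91.7%, all genes 50.7%). Their medians were −0.39, −0.33 and −0.25, with −0.16, −0.15 and −0.0066 for all genes. CDC20 and AURKB, which act in mitosis, were at least 2-fold lower with 2 miRNAs (−1.32 and −1.09). They are 16.7% of the list, with 6.37% of all genes, and none of the 12 was 2-fold lower with 4 miRNAs (6.70% of all genes were). CDK1 (0.22 and 0.40), AURKA (0.10 and 0.34) and CCNB1 (0.14 and 0.20) were above day 5 on both miRNA arrays, and MKI67 was with 4 miRNAs (0.16). MKI67, the gene of the Ki-67 proliferation antigen, gave 3942 and 5103 on the miRNA arrays, 4573 on day 5 and 4450 on day 7, without separation. Between the miRNA arrays 9 of these 12 markers were higher with 4 miRNAs and 3 were lower, where 49.2% of all genes were lower. The median difference of the markers was 0.21, with 0.0043 for all genes.

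**Figure D5:**
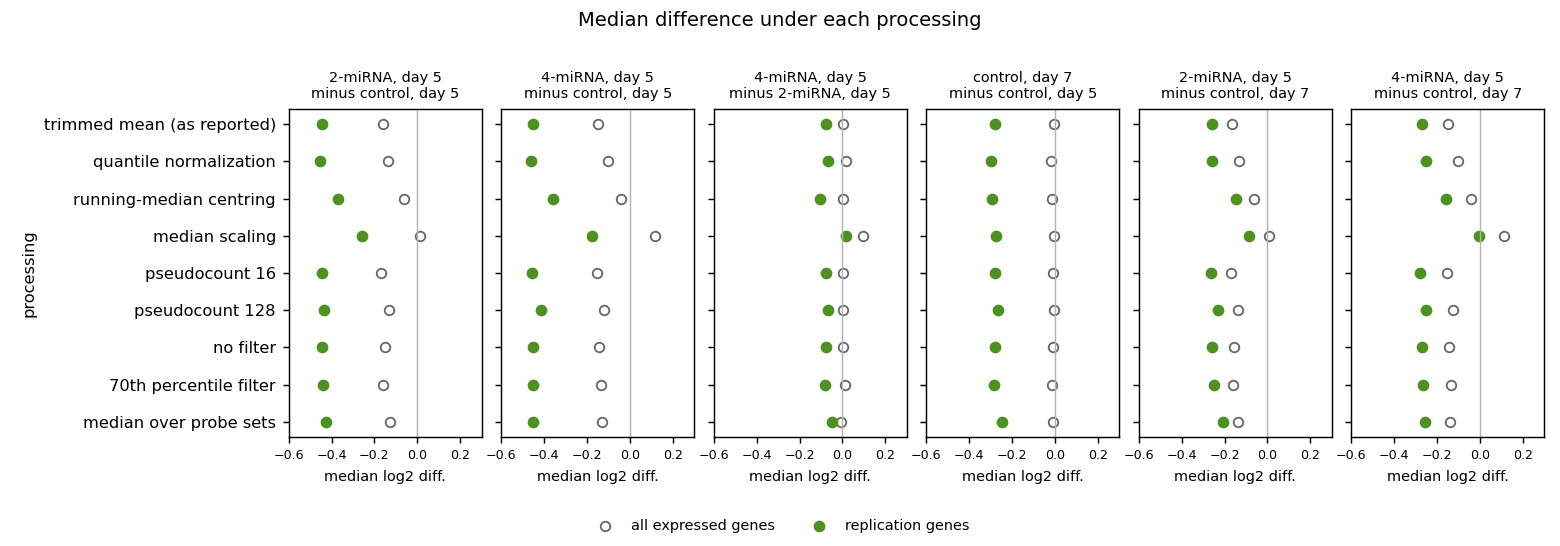
Median log2 difference of the 45 replication genes (filled; 44 under the 70th percentile filter) and of all expressed genes (open) in each of the 6 comparisons under the reported processing and 8 alternatives. The replication genes lie below all genes in each panel and setting, and both shift to the right on scaling by array medians in the 5 panels with a miRNA array.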

How the data were processed

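The authors deposited linear MAS5 intensities, per the submitters' processing notes, for 54675 probe sets and 4 arrays. The version and scaling target of MAS5 are unknown here, and trimmed means differed between arrays as deposited. Each array was multiplied to a 2% trimmed mean of 500, 32 was added and log2 taken (Python 3.11.15, numpy 2.4.6, pandas 2.3.3). Probe sets counted as expressed if the mean log2 was at or above the overall median, or if any array had them at or above its 75th percentile. Names came from the platform annotation (41097 probe sets with 1 symbol, 1801 with several and left out, 11777 unnamed here), updated for 41043 through the NCBI gene table of GRCh38.p14. The functions were tested on simulated data. The 45 genes, the lists and the rule for naming were chosen with earlier results of these data known. By that rule every member may be named, members at least 2-fold apart in any comparison, those with conflicting probe sets and the defining members of each role are given on all arrays, and outside the 45 up to 4 genes past 2-fold per comparison. Alternatives changed the scaling, pseudocount, filter or probe set. No p-values were computed.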

Additional observations from a re-analysis of the deposited data

How the results depend on the processing

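Of 112 recomputed medians and 2-fold counts, 95 stayed within 0.1 log2 or 1.5 times of the reported value. After running-median centring, the numbers at least 2-fold lower than day 5 were 2 and 4 with 2 and 4 miRNAs, and the medians against day 7 were −0.15 and −0.16. Scaling on array medians gave medians of −0.26 and −0.17 against day 5, −0.084 and −0.0062 against day 7 and 0.017 between the miRNA arrays, a reversal, with 1 and 1 genes at least 2-fold lower than day 5 and, with 4 miRNAs, 2 higher. A pseudocount 4 times as large gave 2 and 4 lower. The median over probe sets gave 0 and 0 higher and, with 4 miRNAs, 4 lower, and turned MCM10 from −0.87 and −1.05 to 0.71 and 0.61. The cause was not tested. Of 19 gene differences past 2-fold, MCM10 with 4 miRNAs was the 1 that changed sign under an alternative. The shares of all genes past 2-fold moved by more than 1.5 times in 29 of 96 recomputations. No paired analysis was possible because each group is 1 array. With 1 array per group, signal over background limits single dim genes such as GINS4, and differences between cultures were not measured.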

Other observations

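Regulators of entry into S phase, a textbook list of 12 genes chosen after the data were seen, had 10 expressed members and none at least 2-fold apart in any of the 6 comparisons. CDK4, the kinase partnered by D-type cyclins, gave 8611 and 7867 on the 2-miRNA and 4-miRNA arrays, with controls at 14837 (day 5) and 11260 (day 7), differences of −0.78, −0.91 and −0.40 from day 5. CCND1, the cyclin D1 gene, was on the other side with miRNAs, at 1307 and 1398 with 893 and 704 on the controls. CDKN1A, the p21 inhibitor gene, was highest on day 7 (2167, with 1487 on day 5, a difference of 0.53), and CDKN1B, the p27 gene, was above day 5 by 0.38 and 0.24 with miRNAs and 0.099 on day 7. The other expressed inhibitor genes of the list were below both controls with miRNAs, as were 41.0% of all genes. Their differences from day 5 were −0.74 and −0.61 for CDKN1C, −0.19 and −0.10 for CDKN2A and −0.38 and −0.26 for CDKN2D. CDKN2D was dim, with scaled signals of 95.2 to 184.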
